A study of Mus musculus with 65 samples.

Results

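The genes described here encode the proteasome. They were chosen by name, as the protein-coding mouse genes whose symbol starts with Psma, Psmb, Psmc, Psmd or Psme followed by a number, leaving out Psmb8, Psmb9 and pseudogenes. Of 49670 gene IDs in the count table, 43 fitted the name, and 40 of these had at least 1 CPM (a count scaled to the total of its library) in 3 or more libraries. The 3 that did not pass were Psma8, a testis form of an alpha subunit with a mean of 0.60 CPM, Psme2b, a copy of Psme2 with 0.34 CPM, and Psmb11, the thymus form of a beta subunit with 0.06 CPM. The choice used no difference between groups. One gene that the name caught, Psmc3ip, encodes a partner protein of meiotic recombination and is no subunit, so it is described apart where it stands out.

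The proteasome is the cell's main machine for degrading proteins that have been tagged with ubiquitin. Its core is a barrel of stacked rings, in which alpha subunits (Psma genes) form the gated ends and beta subunits (Psmb genes) form the inner chamber, where Psmb5, Psmb6 and Psmb7 carry the cutting sites. A regulatory cap recognises ubiquitin and threads the substrate in with a ring of ATPases (Psmc genes) held by non-ATPase subunits (Psmd genes), while the Psme genes encode alternative caps that work without ubiquitin. Interferon replaces the cutting subunits with Psmb8, Psmb9 and Psmb10 and raises Psme1 and Psme2, whose products form the cap of the immune form. In spinocerebellar ataxia type 1 the expanded ataxin-1 protein is known to collect in nuclear inclusions that hold ubiquitin and proteasome subunits.

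Messenger RNA was sequenced in 65 libraries from C57BL/6J mice. Wild type mice given vehicle, mice with the Atxn1[82Q] knockin allele given vehicle, and knockin mice given an antisense oligonucleotide (ASO) against Atxn1 were compared in cerebellum at 18 weeks (4 libraries in each group), in medulla and in pons at 18 weeks (3 in each), in medulla at 28 weeks (8 wild type, 8 knockin vehicle and 7 knockin ASO, in 2 labelled batches) and in pons at 28 weeks (4 in each). No wild type mice given the ASO are among these groups, so an effect of the ASO apart from the allele could not be measured. The labels do not say that each library is a separate mouse, so p-values measure the spread between these libraries. The allele is expressed from the gene's own locus in every cell that uses Atxn1, and each tissue was taken whole. In such bulk tissue, fewer cells of a type and less RNA per cell cannot be told apart.

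Totals ran from 49.2 to 119.1 M counts per library, with a median of 77.04 M. The cerebellum libraries held high Purkinje and granule cell markers (Pcp2 averaged 333 CPM there, 4.11 in medulla and 3.23 in pons), and the Hox genes of the hindbrain were near 0 in cerebellum and highest in medulla. Atxn1 averaged 45.0 ± 3.15 CPM (SD) in knockin vehicle and 33.0 ± 8.0 in knockin ASO in medulla at 28 weeks, and 54.2 ± 6.98 against 35.4 ± 11.1 in pons. It went against the label in several libraries: wild type replicate 3 at 18 weeks read 15.3 CPM in medulla and 16.4 in pons, below the other wild type libraries, ASO replicate 2 at 18 weeks read 38.7 and 50.9, and ASO replicate 2 at 28 weeks read 49.4 in medulla and 50.9 in pons, near the vehicle level. In medulla at 28 weeks wild type 5, knockin vehicle 8 and ASO 6 and 7 were low in Hox genes, and knockin vehicle 2 held a choroid plexus marker sum of 24207 CPM. In cerebellum, ASO replicate 3 stood apart in nearly all proteasome genes and is described with that tissue.

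Promoter windows of RefSeq (build GRCm38.p6, 250 bases before to 50 bases after the annotated start, 300 in all) were matched for 34 of the 40 genes. They are shown for 3 genes on which the results turn: Psme1, the cap subunit that was higher in knockin brainstem at 28 weeks; Psmc5, the ATPase that was lower there; and Psmd12, the lid subunit that differed most by region. All 3 lie on the plus strand, at chr14:55578244-55578543, chr11:106255935-106256234 and chr11:107479278-107479577. Capitals mark a match to the core of the interferon-stimulated response element (GAAA, any 2 bases, then GAAA) or of the antioxidant response element (TGACNNNGC), which is the site of the proteasome gene activator Nfe2l1 and its relative Nfe2l2, both here read on the reverse strand.
Psme1: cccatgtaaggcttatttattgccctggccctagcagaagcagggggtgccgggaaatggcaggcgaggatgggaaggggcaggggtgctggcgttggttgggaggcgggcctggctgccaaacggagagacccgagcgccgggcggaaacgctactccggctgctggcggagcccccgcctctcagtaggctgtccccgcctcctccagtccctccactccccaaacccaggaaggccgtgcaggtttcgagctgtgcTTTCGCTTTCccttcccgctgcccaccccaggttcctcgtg
Psmc5: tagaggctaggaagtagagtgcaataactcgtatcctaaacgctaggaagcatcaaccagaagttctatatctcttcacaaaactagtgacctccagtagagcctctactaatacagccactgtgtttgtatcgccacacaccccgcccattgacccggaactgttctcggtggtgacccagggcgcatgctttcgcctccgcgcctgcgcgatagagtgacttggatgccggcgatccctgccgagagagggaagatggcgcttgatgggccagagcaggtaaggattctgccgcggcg
Psmd12: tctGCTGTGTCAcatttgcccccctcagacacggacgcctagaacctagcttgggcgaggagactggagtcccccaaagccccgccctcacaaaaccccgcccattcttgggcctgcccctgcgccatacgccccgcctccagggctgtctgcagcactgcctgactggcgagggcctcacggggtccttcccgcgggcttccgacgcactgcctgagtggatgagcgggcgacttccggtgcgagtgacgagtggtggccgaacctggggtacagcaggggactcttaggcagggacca
The interferon core was found on either strand in 10.8% of the 37 windows of these genes (3 genes had 2 windows) and in 3.44% of all 32851 windows. The genes with it were Psme1, Psmb3, Psmd4 and Psmd9. The windows of Psmb10 and Psme2, the other interferon-inducible members, held no such core. The antioxidant core was in 16.2% against 12.4%, in 6 genes, and CCAAT was in 35.1% against 37.4%, in 13 genes. The Psmc5 window held none of these motifs. These shares describe letters in the windows and carry no test of binding.

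Per kilobase of transcript, the levels in wild type medulla at 28 weeks ran from 227 CPM per kilobase for Psmc5, an ATPase of the cap, through 157 for Psmb6, 141 for Psmb7 and 129 for Psmb4 in the beta ring, to 11.8 for the assembly chaperone Psmd9 and 9.96 for Psme4, a large cap made of a single chain. Psmc3ip was at 1.41. The interferon-inducible members sat low in that order, with 26.0 CPM per kilobase for Psmb10, 26.0 for Psme1 and 20.004 for Psme2.

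The summed level of the 40 genes overlapped between the groups of every tissue and age except pons at 28 weeks, where the 4 knockin ASO libraries (3404 to 3537 CPM) all lay below the 4 wild type libraries (3539.9 to 3837). In wild type it averaged 3343 ± 51.5 CPM (SD, n = 4) in cerebellum, 4120 ± 259 (n = 8) in medulla at 28 weeks and 3725 ± 134 (n = 4) in pons at 28 weeks. In knockin vehicle at 28 weeks it averaged 4009 ± 196 in medulla and 3615 ± 224 in pons, both within the spread of the wild type libraries. The single cerebellum ASO library at 5746.7 CPM was the highest of all 65.

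**Figure D1:**
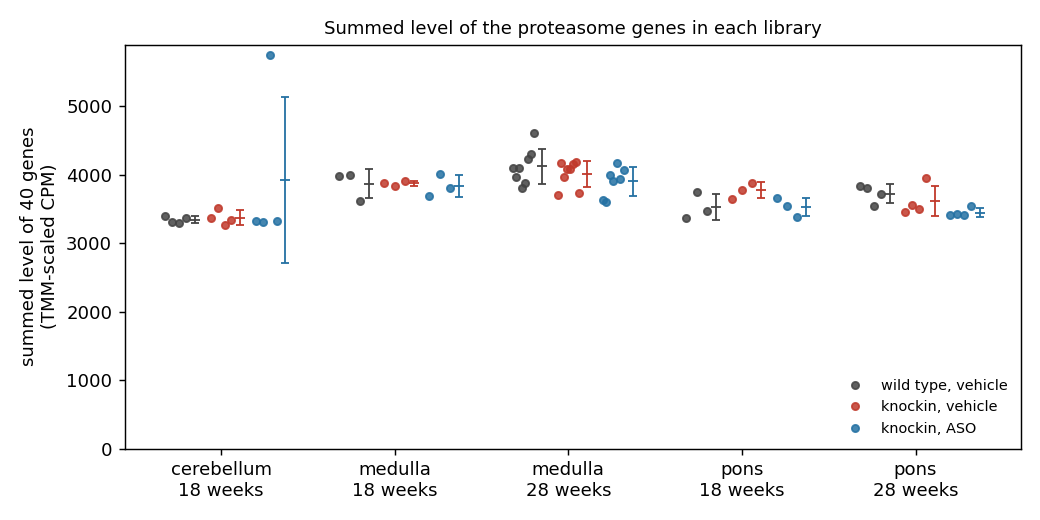
Summed TMM-scaled CPM of the 40 genes (vertical axis, from 0) for every library (points), by tissue and age (horizontal axis) and group (colour), with the group mean and SD as a bar. The groups of each tissue overlap except knockin ASO and wild type in pons at 28 weeks, and 1 cerebellum ASO library lies at 5746.7 CPM while the other 11 cerebellum libraries lie between 3270 and 3518.

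Single genes kept their levels across tissues to different degrees. Leaving out that cerebellum library, the ratio of the highest to the lowest group mean was 1.13 for Psmd11, a lid subunit, 1.14 for Psme2 and 1.18 for Psme3, the nuclear cap subunit. It reached 1.91 for Psmc5, 1.98 for Psmb10, 2.05 for Psme1, 2.15 for Psmd12 and 2.72 for Psmc3ip. The pair whose products form the immune cap thus lay at both ends of that order, since Psme2 was among the least variable genes and Psme1 among the most variable. Psme2 has the near-identical copy Psme2b, and many members have processed pseudogenes, so reads could have been split between copies.

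In medulla at 28 weeks, knockin vehicle was compared with wild type to ask what the allele changed at the later age. One gene was higher and 2 were lower at an edgeR adjusted p under 0.05, which is 7.5% of the 40, while 19.3% of all genes tested were called (9.28% higher and 9.99% lower). The share of these genes was below that over all genes in either direction together, and the median log2 difference was -0.03. The 3 genes were the cap subunit Psme1 and the ATPases Psmc5 and Psmc1. For all 40 genes the 95% limits of the difference (1.96 SE on either side) lay within 1.5-fold.

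Psmc5 encodes an ATPase of the cap's base, whose tail docks on the core. In wild type medulla it read 268 (lowest), 287 (median) and 363 (highest) CPM, in knockin vehicle 237 (lowest), 253 (median) and 263 (highest), and in knockin ASO 225 (lowest), 257 (median) and 281 (highest). No knockin vehicle library reached the lowest wild type library, while ASO libraries overlapped both groups. The means were 251 ± 10.3 CPM (SD, n = 8) in knockin vehicle and 299 ± 33.5 (n = 8) in wild type, a log2 difference of -0.25 (SE 0.047, edgeR adjusted p = 0.000587). Knockin ASO, compared with the same wild type libraries, differed by -0.22 (SE 0.049, edgeR adjusted p = 0.0143). Psmc5 was the 1 member called there, against 3.8% of all genes (1.77% higher and 2.02% lower). At an unadjusted p under 0.05 there were 11 members, and the share of all genes at that limit is not given.

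Psmc1, a neighbouring ATPase of the same ring, read 167 (lowest), 178 (median) and 206 (highest) CPM in wild type and 152 (lowest), 165 (median) and 178 (highest) in knockin vehicle. The groups overlapped. The difference was -0.14 (SE 0.034, edgeR adjusted p = 0.00521), from 184 ± 14.1 to 167 ± 9.37 CPM, and knockin ASO differed from wild type by -0.11 (adjusted p = 0.0726). The other 4 ATPases did not pass, and Psmc2 differed by -0.02, Psmc3 by -0.04, Psmc4 by -0.04 and Psmc6 by -0.02.

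Psme1 encodes the alpha chain of the interferon-inducible cap. It read 24.5 (lowest), 28.1 (median) and 33.7 (highest) CPM in wild type medulla, 30.7 (lowest), 34.2 (median) and 44.8 (highest) in knockin vehicle and 27.3 (lowest), 30.8 (median) and 35.6 (highest) in knockin ASO. Knockin vehicle libraries were higher with some overlap, and ASO libraries overlapped both groups. The mean was 35.4 ± 4.495 CPM against 28.9 ± 3.64, a log2 difference of 0.30 (SE 0.071, edgeR adjusted p = 0.00488).

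The labels split medulla at 28 weeks into 2 batches, and these genes were also fitted within each. Psme1 was called in batch 1 (36.5 against 26.0 CPM, log2 difference 0.48, edgeR adjusted p = 0.0183) and not in batch 2 (34.2 against 31.7 CPM, 0.11, adjusted p = 0.289). Psmc5 was called in batch 2 (-0.31, edgeR adjusted p = 0.0090) and not in batch 1 (-0.19, adjusted p = 0.0988). Psmc1 likewise passed in batch 2 (-0.16, edgeR adjusted p = 0.0429) and not in batch 1 (-0.13, adjusted p = 0.197). All 3 genes kept their direction in both batches, and whether the batches differ was not tested. Without knockin vehicle replicate 2, the library with the high choroid plexus sum, 6 genes were called, with Psmd1 added as higher and Psmb4 and Psmd10 as lower, while 26.6% of all genes were then called. Without the libraries low in Hox genes the count stayed at 3, while 16.6% of all genes were called.

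In pons at 28 weeks the same comparison called 2 genes, Psme1 as higher and Psmc5 as lower, which is 5% of the 40, while 9.79% of all genes were called (4.14% higher and 5.65% lower). The median difference was -0.04.

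Psme1 in pons read 31.04, 29.8, 32.5 and 30.8 CPM in the 4 wild type libraries, 40.4, 43.4, 43.9 and 40.6 in knockin vehicle and 32.6, 37.2, 38.01 and 42.2 in knockin ASO. All 4 knockin vehicle libraries and all 4 ASO libraries were above every wild type library, and the ASO libraries overlapped the vehicle ones. Knockin vehicle averaged 42.1 ± 1.82 CPM against 31.01 ± 1.12 in wild type, a log2 difference of 0.44 (SE 0.062, edgeR adjusted p = 0.00115). Knockin ASO averaged 37.5 ± 3.93 CPM and differed from the same wild type libraries by 0.27 (SE 0.062, edgeR adjusted p = 0.0481).

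Psmc5 in pons read 249, 241, 219 and 234 CPM in wild type, 189.9, 191, 189 and 224 in knockin vehicle and 201, 194, 189.6 and 198 in knockin ASO. Knockin vehicle replicate 4 was the highest of its group and overlapped wild type, and the ASO libraries were all below wild type. Knockin vehicle differed by -0.25 (SE 0.056, edgeR adjusted p = 0.0145), and knockin ASO by -0.27 (SE 0.056, adjusted p = 0.0399). Psmc1 differed by -0.13 in knockin vehicle (edgeR adjusted p = 0.107) and by -0.17 in knockin ASO (adjusted p = 0.0906), so neither passed in pons.

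**Figure D2:**
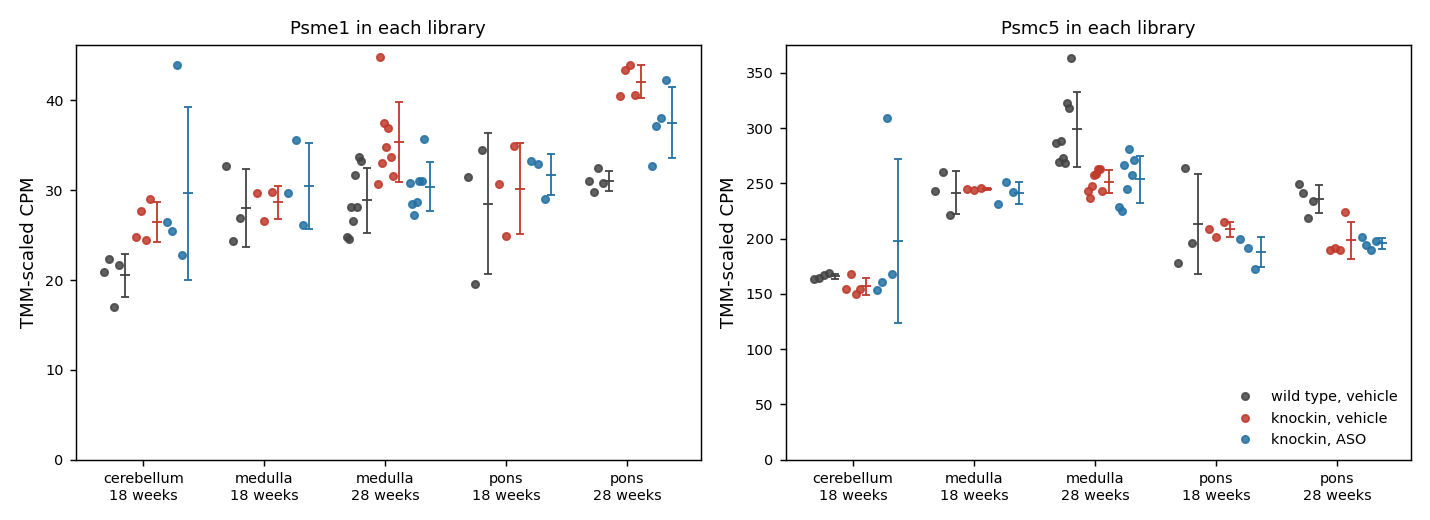
TMM-scaled CPM (vertical axes, from 0) of Psme1 and Psmc5 in every library (points), by tissue and age (horizontal axis) and group (colour), with the group mean and SD as a bar. At 28 weeks knockin vehicle averaged 42.1 against 31.0 CPM for Psme1 in pons and 251 against 299 CPM for Psmc5 in medulla, and the lowest group mean of each gene was in cerebellum.

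The pons result for the rest of the genes turned on 1 library. Knockin vehicle replicate 4 had a summed level of 3946 CPM while the other 3 had 3461 to 3551. Without it, 13 genes were called against wild type, 12 of them lower, while 20.5% of all genes were then called, and the median was -0.08. The 12 were the ATPases Psmc1, Psmc2, Psmc3, Psmc5 and Psmc6, the lid subunits Psmd6, Psmd12 and Psmd14, and the core subunits Psma2, Psma5, Psmb1 and Psmb7, and Psme1 was still the 1 gene that rose. The same library differed from its group in other ways, with 43.9 CPM of Atxn1 (56.2 to 59.0 in the other 3), an oligodendrocyte marker sum of 13880 CPM (9328 to 9963) and a neuron marker sum of 4252 CPM (3662 to 3715), and the part of these in the proteasome values was not tested. Psmc5 lost its call when knockin vehicle replicate 1, 2 or 3 was left out (edgeR adjusted p = 0.054 each time), and Psme1 kept it in all 12 such fits.

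The ASO comparison in pons leant on the same libraries. Knockin ASO against wild type called 2 genes, against 1.07% of all genes (0.474% higher and 0.591% lower). Of the 40, 21 had an unadjusted p under 0.05, a limit at which the share of all genes is not given. Psmc5 kept its call in 1 of 12 fits that left out a library and Psme1 in 2 of 12. Without knockin vehicle replicate 4, which enters this comparison only through the shared estimate of the spread, 11 genes were called, 10 of them lower, while 5.3% of all genes were called. Of the 40 differences 36 were negative, with a median of -0.11, where all genes had 0.002.

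Knockin ASO was set against knockin vehicle to ask whether lowering Atxn1 moved these genes back. No gene of the 40 was called by edgeR or DESeq2 in medulla, where 1 had an unadjusted p under 0.05 and 1.69% of all genes were called by edgeR, or in pons, where 4 had one and 0.0929% were called by edgeR. DESeq2 called 3.02% of all genes in medulla and 3.03% in pons. Psme1 had the smallest p in medulla, with a log2 difference of -0.21 (SE 0.074, edgeR adjusted p = 0.211), and differed by -0.16 in pons (SE 0.061, adjusted p = 0.239). Psmc5 differed by 0.03 in medulla and by -0.02 in pons (adjusted p = 0.898 and 0.917). The 95% limits lay within 1.5-fold for all 40 genes in both tissues, so larger shifts of either sign are outside them. Without ASO replicate 2, the library near the vehicle level of Atxn1, the count against knockin vehicle was again 0 in both tissues.

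In medulla the gene next in order was Psma7, an alpha subunit. It read 95.96 (lowest), 108 (median) and 120.3 (highest) CPM in knockin vehicle and 84.7 (lowest), 99.8 (median) and 111 (highest) in knockin ASO, and the groups overlapped. Its difference was -0.10 (edgeR adjusted p = 0.485). In pons the smallest p belonged to Psmb2, a beta subunit without a cutting site, which read 60.9, 63.9, 64.4 and 69.4 CPM in knockin vehicle and 58.4, 59.7, 58.4 and 60.6 in knockin ASO. These 2 groups did not overlap, and the difference was -0.12 (SE 0.044, edgeR adjusted p = 0.223). In pons 38 of the 40 differences were negative with a median of -0.07, where all genes had -0.01, and without knockin vehicle replicate 4 that median was -0.01.

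Of the 3 interferon-inducible members, Psme1 was the 1 that was called. Psme2, the partner chain of Psme1, read 17.2 (lowest), 18.8 (median) and 22.3 (highest) CPM in wild type medulla and 17.96 (lowest), 20.1 (median) and 24.8 (highest) in knockin vehicle, and its difference was 0.09 (SE 0.059, edgeR adjusted p = 0.314). In pons it read 18.6, 18.02, 18.1 and 19.6 CPM in wild type and 19.7, 18.7, 19.8 and 21.2 in knockin vehicle (difference 0.09, adjusted p = 0.318). The groups overlapped in both tissues.
Psmb10, which replaces the cutting subunit Psmb7 in the immune form, read 30.2 (lowest), 33.7 (median) and 39.3 (highest) CPM in wild type medulla and 31.2 (lowest), 34.5 (median) and 39.8 (highest) in knockin vehicle, with a difference of 0.04 (edgeR adjusted p = 0.661). In pons it read 35.3, 30.6, 30.8 and 31.6 CPM in wild type and 32.2, 36.5, 34.8 and 39.1 in knockin vehicle, with a difference of 0.15 (SE 0.059, adjusted p = 0.122). Neither gene passed in either tissue.

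Psmb8 and Psmb9, the other immune cutting subunits, are not among the 40. Psmb8 was higher in knockin vehicle medulla at 28 weeks, with 5.99 against 5.004 CPM and a log2 difference of 0.25 (edgeR adjusted p = 0.0192), and did not pass in pons (0.12, adjusted p = 0.521). Psmb9 differed by 0.12 in medulla and -0.18 in pons (edgeR adjusted p = 0.53 and 0.391).
Of 8 interferon response genes, 8 were called higher in knockin vehicle medulla (median log2 difference 0.67) and 7 in pons (0.82). With ASO, 5 and 6 were called higher than in wild type, and 0 were called against knockin vehicle in either tissue. Their summed level in pons was 51.0 to 64.7 CPM in wild type, 78.6 to 99.4 in knockin vehicle and 71.7 to 97.5 in knockin ASO, and in medulla 49.1 to 74.7, 67.9 to 107 and 68.1 to 93.2. The part of that response in the Psme1 values was not tested. In the same comparisons marker genes of neurons, astrocytes and oligodendrocytes were called lower (3, 4 and 4 of 5 in medulla, 3, 2 and 2 of 5 in pons) and none of 6 microglia markers was called, and their part in the proteasome values was not tested either.

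None of the constitutive cutting subunits was called between the groups of either tissue at 28 weeks with all libraries in the fit. Psmb5, with the chymotrypsin-like site, read 59.8, 59.4, 55.4 and 58.8 CPM in wild type pons and 56.5, 56.8, 55.2 and 65.8 in knockin vehicle, and its differences were -0.09 in medulla and 0.004 in pons (edgeR adjusted p = 0.313 and 0.968). Psmb6, with the caspase-like site, read 111, 113, 102 and 105 CPM in wild type and 104, 104, 104 and 125 in knockin vehicle, and differed by -0.03 and 0.02 (adjusted p = 0.755 and 0.878). Psmb7, with the trypsin-like site, read 157, 154, 139 and 143 CPM in wild type and 133, 141, 133 and 165 in knockin vehicle, and differed by -0.05 and -0.05 (adjusted p = 0.535 and 0.641). In all 3 genes knockin vehicle replicate 4 was the highest of its group in pons and the groups overlapped. Without that library Psmb7 was called lower in pons (-0.14, edgeR adjusted p = 0.0323), while 20.5% of all genes were called. Among the alpha ring, the beta ring, the non-ATPase subunits and the assembly chaperones, no gene was called between these groups in either tissue with all libraries in the fit.

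Whether the genotype effect differed between medulla and pons was tested directly. In each group, replicates 1 to 4 of both tissues carry the same numbers at the end of their column names. The sources used here do not give the meaning of those numbers. Results of the 2 tissues may thus not be independent, and the fit did not pair those libraries. No gene of the 40 had a called interaction, by edgeR or DESeq2, for genotype (1 with an unadjusted p under 0.05, and 0.0184% of all genes called by edgeR and 0.0645% by DESeq2) or for ASO (0 with one, and 0% of all genes by either tool). For Psme1 the genotype interaction, medulla minus pons, was -0.13 (SE 0.11, edgeR adjusted p = 0.811), and for Psmc5 it was 0.01 (SE 0.079, adjusted p = 0.989). Psme4 had the smallest p, with 0.16 (SE 0.052, adjusted p = 0.398).

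In cerebellum at 18 weeks, a region whose Purkinje cells are known to be affected in this disease, no gene of the 40 was called between knockin vehicle and wild type by edgeR or DESeq2. None had an unadjusted p under 0.05 by edgeR, 20 differences were positive and 20 negative, and the median was -0.001, while 2.71% of all genes were called by edgeR and 6.34% by DESeq2. Psme1 had the smallest p. It read 20.95, 22.4, 17.00 and 21.7 CPM in wild type, 24.7, 27.7, 24.4 and 29.03 in knockin vehicle and 26.5, 25.5, 43.9 and 22.8 in knockin ASO. All knockin libraries of both treatments were above the wild type libraries. Knockin vehicle differed by 0.36 (SE 0.18, edgeR adjusted p = 0.391). With only those 2 groups in the fit the edgeR adjusted p was 0.0144. With all groups but without ASO replicate 3 it was 0.0151. In both fits Psmd12 was called higher as well, which makes 2 of the 40 genes. Of all genes 16.2% and 14.1% were then called. Psmc3ip was next, with 3.67, 3.398, 3.49 and 3.23 CPM in wild type and 3.42, 2.21, 2.38 and 2.65 in knockin vehicle, overlapping groups and a difference of -0.38 (edgeR adjusted p = 0.494).
The other inducible and catalytic genes differed between knockin vehicle and wild type cerebellum by 0.12 (Psme2), 0.11 (Psmb10), -0.04 (Psmb5), -0.003 (Psmb6) and 0.02 (Psmb7). The summed level of the 8 interferon genes was 52.1 to 96.2 CPM in wild type and 69.0 to 88.9 in knockin vehicle, and none of the 8 was called. In the same comparison 3 of 6 Purkinje markers were called lower.

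The ASO comparisons in cerebellum were set by 1 library. ASO replicate 3 had a summed level of 5746.7 CPM, while the other 11 cerebellum libraries had 3270 to 3518. Of the 40 genes, 37 were above all 11 of these, and the exceptions were Psme3, Psme4 and Psmd1. The median ratio to the other ASO libraries was 0.86 on the log2 scale (with 1 CPM added), and 33 genes (82.5%) were above 1.5-fold, against 11.995% of all genes tested and 17.0% of genes at a like level. The largest ratios were 2.27-fold for Psmb3, 2.22-fold for Psmb4 and 2.11-fold for Psmb10. This library also had the most counts of all, 119.1 M, and 20.3 CPM of Atxn1. Its marker sums were 8329 CPM for oligodendrocytes (4806 to 6443 in the other 11), 177 for microglia (95.7 to 140.3) and 132 for endothelial cells (86.7 to 101.9), and their part in the proteasome values was not tested.

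Transcript length moved with these ratios. Among genes at a like level, the median log2 ratio was 0.63 in the shortest quartile (57 to 2108 bases, 2189 genes), 0.20 in the next, -0.10 in the third and -0.50 in the longest. The 29 proteasome genes in the shortest quartile had a median of 0.91, and the 9 in the next had 0.42. Spearman's rho between length and ratio was -0.65 across the 40 genes and -0.78 across 8752 genes, given without a test since the genes share 1 library. The part of length, or of RNA quality, in the excess over genes of like length was not tested.

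**Figure D3:**
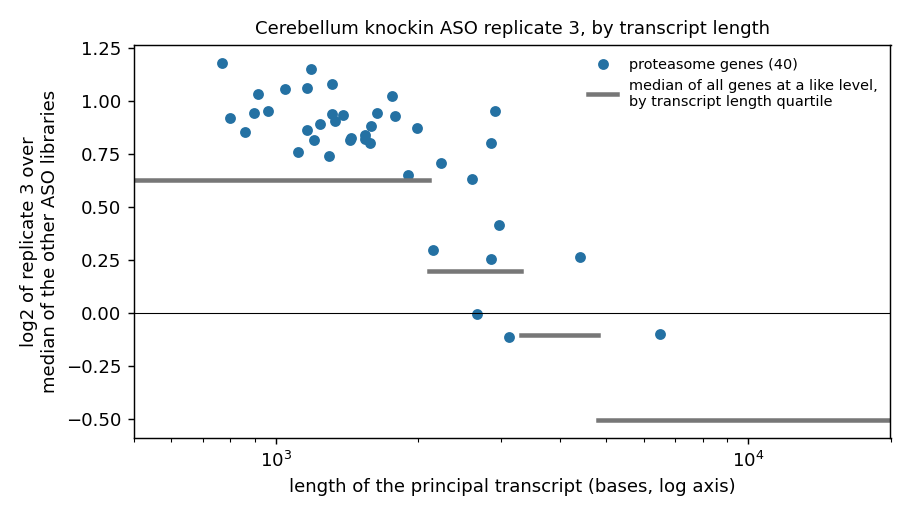
Log2 ratio of cerebellum ASO replicate 3 to the median of the other ASO libraries (vertical axis) against the length of the principal transcript in bases (horizontal log axis), with each proteasome gene as a point and grey lines for the median of all genes at a like level in each length quartile. The lines fall from 0.63 to -0.50, and most short proteasome genes lie above the first line.

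Between knockin ASO and knockin vehicle in cerebellum, 38 of 40 differences were positive with a median of 0.23. Without replicate 3 that became 6 positive and 34 negative with a median of -0.03. Against wild type, the median was 0.23 and became -0.03. No gene was called in either comparison by edgeR or DESeq2, with 0 and 1 genes at an unadjusted p under 0.05. Of all genes, edgeR called 0.0491% and 0%, and DESeq2 called 1.15% and 2.06%. Psmc3ip and Psmc5 had the smallest p against knockin vehicle. Psmc5 read 155, 168, 150.0 and 155 CPM in knockin vehicle and 154, 161, 309 and 168 in knockin ASO, where replicate 3 is the third value, and differed by 0.32 (SE 0.18, edgeR adjusted p = 0.668). Psmc3ip read 2.81, 2.66, 5.35 and 3.29 CPM in knockin ASO and differed by 0.39 (adjusted p = 0.668). Against wild type, Psme1 differed by 0.51 (SE 0.18, edgeR adjusted p = 0.311), and by 0.27 without replicate 3 (SE 0.094, adjusted p = 0.158). Psmd12 read 67.4, 65.8, 67.1 and 65.04 CPM in wild type and 69.4, 71.4, 111 and 70.1 in knockin ASO, and differed by 0.26 (adjusted p = 0.486). All ASO libraries were above wild type in both genes. Precision was low here, with 95% limits within 1.5-fold for 25 and 24 of the 40 genes.

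In medulla at 18 weeks no gene of the 40 was called in any of the 3 comparisons by edgeR or DESeq2, and none had an unadjusted p under 0.05. Of all genes edgeR called 0% in each, and DESeq2 called 0.0717% for knockin vehicle against wild type, 0.0154% for ASO against knockin vehicle and 0% for ASO against wild type. The medians were 0.01 for knockin vehicle against wild type, -0.01 for ASO against knockin vehicle and -0.01 for ASO against wild type, and the 95% limits lay within 1.5-fold for 39 genes in each. Without the libraries that Atxn1 sets against their labels the medians were -0.05, -0.02 and -0.07, with no gene called.

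The genes of smallest p had overlapping groups except where stated. Psmd10, the chaperone also known as gankyrin, read 18.9, 20.2 and 16.9 CPM in wild type and 17.1, 16.7 and 17.9 in knockin vehicle (difference -0.12), and Psmc3ip read 1.95, 1.44 and 1.86 CPM in wild type and 1.498, 1.43 and 1.15 in knockin vehicle (-0.37). The smallest p for ASO against knockin vehicle were those of Psme3 (-0.09, from 103, 108 and 111 to 92.5, 105 and 104 CPM) and Psmb2 (-0.08, from 64.1, 62.9 and 65.5 to 57.5, 64.4 and 58.9 CPM). Psmd1, a large scaffold subunit of the cap, read 177, 184 and 174 CPM in wild type and 157, 169.8 and 168 in knockin ASO without overlap (-0.11, edgeR adjusted p = 0.997), and Psmb4, a beta subunit without a cutting site, read 135, 113 and 118 CPM in wild type and 126, 135 and 127 in knockin ASO (0.09).
Psme1 read 32.7, 24.4 and 26.9 CPM in wild type, 29.7, 26.6 and 29.8 in knockin vehicle and 29.7, 35.5 and 26.1 in knockin ASO at this age, and its genotype difference was 0.03 (SE 0.13, edgeR adjusted p = 0.992). That of Psmc5 was 0.01 (SE 0.070, adjusted p = 0.993). Psme2 differed by 0.04, Psmb10 by 0.11, Psmb5 by -0.003, Psmb6 by 0.02 and Psmb7 by -0.005. The difference between ages was not tested.

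In pons at 18 weeks, too, no gene of the 40 was called by edgeR or DESeq2 in any of the 3 comparisons. Of all genes edgeR called 0% in each, and DESeq2 called 0.0656% for knockin vehicle against wild type, 0.0909% for ASO against knockin vehicle and 0.0151% for ASO against wild type. Knockin vehicle against wild type had 11 genes with an unadjusted p under 0.05, a median of 0.09 (0.002 over all genes) and 28 positive differences. The ASO comparisons had 0 genes under that limit, at which the share of all genes is not given. Psmd6, a lid subunit, read 67.4, 74.4 and 71.9 CPM in wild type and 80.1, 101 and 89.04 in knockin vehicle. Psma6, an alpha subunit, read 87.9, 96.4 and 102 CPM in wild type and 109, 137 and 125 in knockin vehicle. In both genes all knockin vehicle libraries were above wild type, with differences of 0.35 (SE 0.10) and 0.39 (SE 0.12) and an edgeR adjusted p of 0.408 for each. The 7 alpha genes had a median of 0.27 and the 7 beta genes one of -0.09, ranging from -0.26 to 0.18, with none of them called and no test of that contrast.

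The differences for the named genes in that comparison were 0.10 for Psme1, 0.11 for Psme2, -0.34 for Psmb10, -0.26 for Psmb5, -0.15 for Psmb6, 0.18 for Psmb7 and -0.02 for Psmc5. For ASO against knockin vehicle the smallest p were those of Psma2, an alpha subunit, at 115, 125 and 117 CPM in knockin vehicle against 111, 103 and 100.1 in knockin ASO without overlap (-0.19, edgeR adjusted p = 0.753), and of Psma6 (-0.22), which overlapped. For ASO against wild type they were those of Psmd14, the deubiquitinase of the cap, at 79.4, 80.8 and 81.9 CPM in wild type against 97.2, 89.9 and 89.7 in knockin ASO (0.20, adjusted p = 0.922), and of Psma4 (0.18). Without the libraries that Atxn1 sets against their labels the medians of the 3 comparisons were 0.10, -0.09 and 0.02 in place of 0.09, -0.09 and 0.04.

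**Figure D4:**
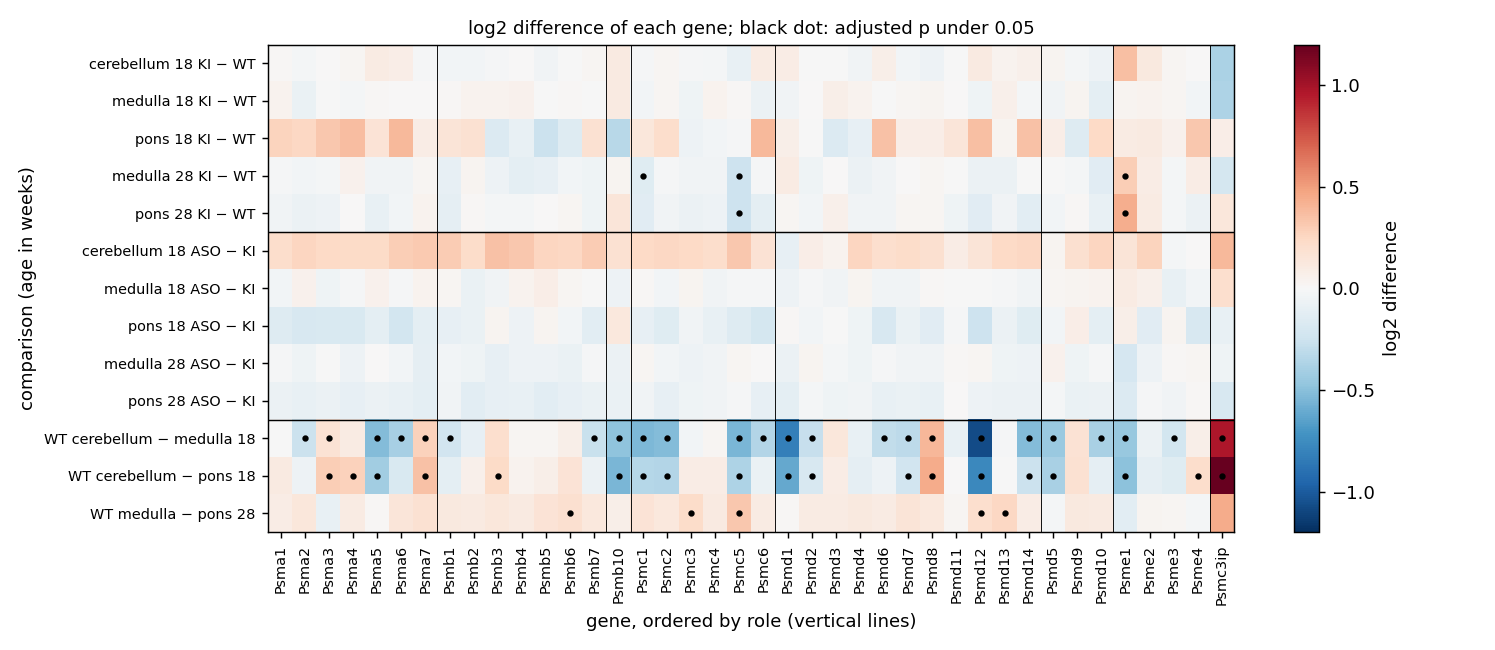
Log2 differences (colour scale, from -1.2 to 1.2) of the 40 genes (horizontal axis, ordered by role) in each comparison (vertical axis, with age in weeks), with a black dot where the edgeR adjusted p was under 0.05. The treatment and genotype rows are pale with few dots, and the regional rows hold most of them, 24 and 19 for cerebellum against medulla and pons.

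Regions were compared in wild type, where calls were frequent over the whole table. In wild type at 18 weeks, cerebellum differed from medulla in 24 genes, 4 higher and 20 lower, while 59.2% of all genes were called and 29.3% were higher and 30% lower. It differed from pons in 19 genes, 7 higher and 12 lower, while 56.1% of all genes were called and 27.6% were higher and 28.4% lower. The shares called, 60% and 47.5% of the 40 genes, were near or below those of all genes. Against medulla 50% of the 40 genes were lower in cerebellum and 4 were higher, whereas among all genes both directions were near equal, a comparison given without a test. Without wild type replicate 3 of medulla and pons, the libraries that Atxn1 sets against their label, the counts were 22 and 17. Of all genes 53.6% and 47.6% were then called. An alternative chosen after seeing the data used the number that ends the column names as a block. Only cerebellum replicate 3 shares that number with brainstem libraries (replicate 2 of medulla and of pons). A single cerebellum library thus bears on the differences of that fit, which cannot check the counts. Against medulla and pons they were -0.46 and -0.53 for Psmb10, -0.76 and -0.56 for Psmc5, and -0.37 and -0.37 for Psme1.

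Both comparisons use the same cerebellum libraries, so a gene called in both is not 2 independent results. Lower against each region were the ATPases Psmc1, Psmc2 and Psmc5, the cap subunits Psmd1, Psmd2, Psmd7, Psmd12 and Psmd14, the chaperone Psmd5, the alpha subunit Psma5, and the inducible Psmb10 and Psme1. Higher against each were the alpha subunits Psma3 and Psma7, the lid subunit Psmd8, and Psmc3ip. The share of all genes called in the same direction against both regions is not given, so these lists have no background beside them. By role, 4 of 6 ATPases and 6 of 11 non-ATPase subunits of the cap were lower than in medulla, against 3 of 7 alpha and 2 of 7 beta genes. Of all genes 30% were lower there, and differences between roles were not tested.

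Psmd12 had the largest differences among the subunits proper. It read 67.4, 65.8, 67.1 and 65.04 CPM in cerebellum, 133, 160.3 and 123 in medulla and 98.8, 121 and 116 in pons, without overlap of cerebellum with either. The differences were -1.07 (SE 0.096, edgeR adjusted p = 1.10e-06) against medulla and -0.77 (SE 0.096, adjusted p = 2.38e-05) against pons. Psmd1 read 108, 95.2, 103 and 101 CPM in cerebellum, 177, 184 and 174 in medulla and 160.2, 159 and 143 in pons, again without overlap. Its differences were -0.82 (SE 0.069, edgeR adjusted p = 6.58e-07) and -0.61 (SE 0.069, adjusted p = 1.03e-05).

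In the other direction, Psmd8 read 116, 116, 112 and 118 CPM in cerebellum, 95.5, 80.8 and 86.3 in medulla and 85.1, 84.2 and 83.4 in pons, with differences of 0.39 (edgeR adjusted p = 0.00024) and 0.44 (adjusted p = 0.000112). Psmc3ip read 3.67, 3.398, 3.49 and 3.23 CPM in cerebellum, 1.95, 1.44 and 1.86 in medulla and 1.69, 1.29 and 1.48 in pons, and differed by 0.97 (edgeR adjusted p = 0.000464) and 1.202 (adjusted p = 0.000106). Both genes were higher in every cerebellum library than in the brainstem libraries.
Psmb10 read 18.3, 18.7, 17.9 and 19.5 CPM in cerebellum, 30.7, 21.96 and 24.7 in medulla and 27.4, 28.5 and 24.9 in pons, and differed by -0.48 and -0.55 (edgeR adjusted p = 0.00181 and 0.000803). Psme1 differed by -0.46 and -0.49 (adjusted p = 0.043 and 0.0341). With 1 library left out at a time, Psme1 kept its call by edgeR in 4 of 10 fits against medulla (-0.58 to -0.33, adjusted p up to 0.174) and in 5 of 10 against pons (-0.70 to -0.35, up to 0.142). It lost the first without any 1 of the cerebellum libraries or without medulla replicate 1 or 3, and the second without cerebellum replicate 1, 3 or 4 or pons replicate 1 or 3. Of the other genes lower or higher against each region, Psma3 kept its call against medulla in 3 of 10 such fits, Psmd2 against pons in 5 of 10, and Psmc5 and Psmd14 against pons in 9 of 10. In the same libraries 5 of 6 microglia markers and 5 of 5 oligodendrocyte markers were lower in cerebellum than in either brainstem region, and their part in these values was not tested. Psme2 differed by -0.07 and -0.11, Psmb5 by 0.02 and 0.07, Psmb6 by 0.07 and 0.16 and Psmb7 by -0.27 and -0.07, against medulla and pons in that order.

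**Figure D5:**
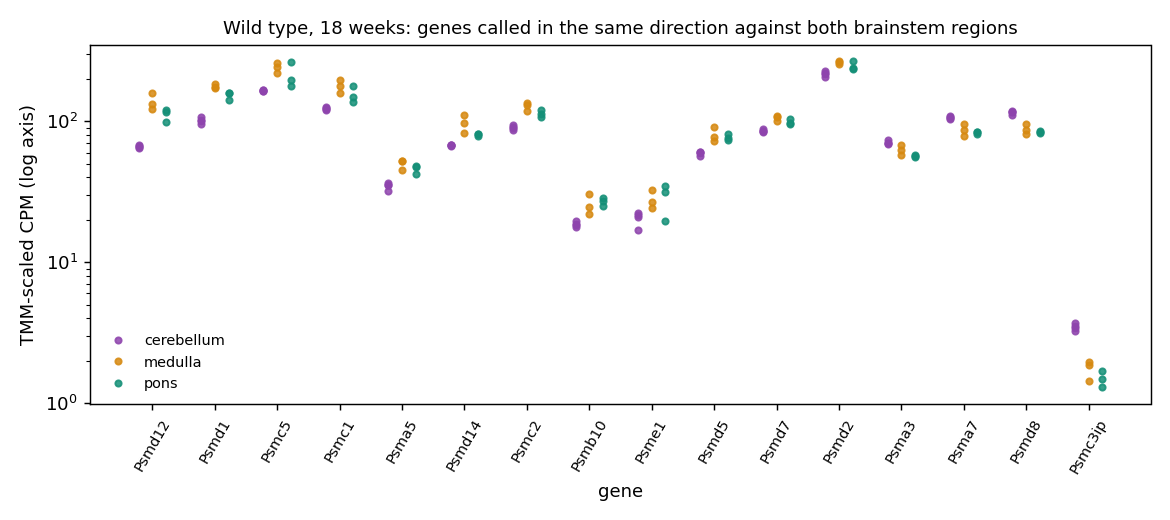
TMM-scaled CPM (vertical log axis) of the 16 genes called in the same direction against both brainstem regions (horizontal axis), for each wild type library at 18 weeks (points), coloured by region. The lower genes have their cerebellum points under the brainstem points, except that Psme1 overlaps pons, and Psma3, Psma7, Psmd8 and Psmc3ip have them above. The share of all genes called in this way is not given.

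Between the brainstem regions, wild type medulla at 28 weeks was above pons in 5 genes. Of all genes 10.9% were called, 5.6% higher and 5.27% lower. Of the 40, 24 had an unadjusted p under 0.05, a limit at which the share of all genes is not given. The median difference was 0.11, where all genes had -0.0007, and 36 of 40 were positive. Psmc5 read 268 (lowest), 287 (median) and 363 (highest) CPM in medulla and 249, 241, 219 and 234 in pons, a difference of 0.32 (SE 0.070, edgeR adjusted p = 0.0141) without overlap. Psmc3, another ATPase, read 144 (lowest), 154 (median) and 178 (highest) CPM in medulla and 133, 140.4, 125 and 133 in pons, a difference of 0.22 (SE 0.052, adjusted p = 0.0179). The others were Psmd12 (0.20), Psmd13, a lid subunit (0.25), and the cutting subunit Psmb6 (0.20).
The count depended on single libraries, and the share of all genes called moved with it. It was 0 without pons replicate 3 (1.31% of all genes), 1 without pons replicate 1 (1.99%) and 2 without pons replicate 4 (6.19%). It was 12 without medulla replicate 5, the wild type library low in Hox genes (17.2%). The mean log2 Hox level of that library, 1.46, lay within the 1.27 to 1.91 of wild type pons at 28 weeks. The part of this in the count was not tested. With batch 1 of medulla alone 7 genes were called, 6 higher and 1 lower, while 14.7% of all genes were called. The lower gene was Psme1 (-0.26, edgeR adjusted p = 0.00523), which differed by -0.008 with batch 2 alone. The labels give batches for medulla alone, so region and batch cannot be told apart here.

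Other genes of the pathway were taken from a list of 38. In medulla at 28 weeks 5 rose and 4 fell in knockin vehicle, which is 23.7% of the list, while 19.3% of all genes were called. Among those called were Akirin2, which brings proteasomes into the nucleus and was lower (-0.18, edgeR adjusted p = 0.00332), and 2 genes that were higher, Ufd1, a cofactor of the unfoldase Vcp (0.12, adjusted p = 0.0154), and Faf2, another partner of Vcp (0.10, adjusted p = 0.0183). Akirin2 averaged 40.4 CPM in knockin vehicle and 45.5 in wild type.

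In pons at 28 weeks 0 rose and 4 fell, which is 10.5%, while 9.79% of all genes were called. They were the ubiquitin-activating enzyme Uba6 (-0.25, edgeR adjusted p = 0.0187), Akirin2 (-0.20, adjusted p = 0.0195), the proteasome-bound deubiquitinase Uchl5 (-0.21, adjusted p = 0.0323), and Nfe2l1, the transcription factor that raises proteasome genes when the proteasome is short (-0.15, adjusted p = 0.0426). Against wild type, knockin ASO medulla had 3 lower and 0 higher, which is 7.89% of the list, while 3.8% of all genes were called. Among the 3 were Akirin2 (-0.17) and the assembly chaperone Psmg4 (-0.25). Knockin ASO pons had 1 lower, Uchl5 (-0.27), which is 2.63%, while 1.07% of all genes were called. Against knockin vehicle none of the 38 was called in either tissue by edgeR, which called 1.69% of all genes in medulla and 0.0929% in pons.

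By region, 8 of the 38 were higher and 15 lower in wild type cerebellum than in medulla, and 9 higher and 13 lower than in pons. These are 60.5% and 57.9% of the list, near the 59.2% and 56.1% of all genes called. Usp14, the other deubiquitinase on the cap, was lower (-1.16 against medulla and -0.96 against pons), as was Nfe2l1 against medulla (-0.77), while Zfand5, which stimulates degradation by the proteasome, was higher (0.69 and 0.78). Akirin2 was higher than in pons (0.58). In wild type medulla at 28 weeks 3 were higher than in pons, Nfe2l2 (0.25), Uchl5 (0.24) and Nfe2l1 (0.12), each called by edgeR. They are 7.89% of the list, below the 10.9% of all genes called.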

How the data were processed

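RNA of 65 libraries in 15 groups was measured. The authors deposited 1 table of whole-number read counts for 49670 gene IDs, with all 65 columns used. Per the submitters' processing notes, CASAVA 1.8, HISAT2 2.0.2, featureCounts of Subread, R 3.3.3 and DESeq2 1.14.1 were used with GRCm38. Per the labels' protocols the kit was stranded, and the sources used here do not give the strand and pair settings of the counting. Symbols came from GENCODE vM21. The members, gene lists and alternatives were chosen with earlier results of these data known.

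Counts were tested with edgeR 4.0.16 (with limma 3.58.1 and R 4.3.3): TMM scaling, the filterByExpr filter at a minimum count of 10, quasi-likelihood fits made robust, and p-values adjusted by Benjamini and Hochberg's method across the whole table, with a call at an adjusted p under 0.05. Each tissue and age was fitted with its 3 groups, with batch as a term in medulla at 28 weeks, wild type regions were fitted together, and interactions came from a joint fit, which makes 20 comparisons. ASO and vehicle comparisons of a tissue share libraries. The standard error is the log2 difference divided by the root of the F statistic. Counts of members at an unadjusted p under 0.05 come without the share of all genes at that limit. Levels are TMM-scaled CPM, and levels between genes are per kilobase of the principal transcript.

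The 40 members that passed the filter, of 43, were tested in every comparison. Per-library values are given for called members of smallest adjusted p, or the 2 of smallest p where none was called, and Psmb10, Psme1, Psme2, Psmb5, Psmb6 and Psmb7 were to be named in every comparison; those not named in an ASO comparison were not called there. Pathway genes are up to 3 called ones of smallest adjusted p, leaving out genes whose values are not reported here. Alternatives were DESeq2 1.42.0, RLE scaling, no low-count filter, other sample sets, replicate blocks and leaving out each library. The fits were tested on simulated data. No pair of libraries held identical values. In no tissue and age did every same-numbered pair of replicates correlate above 0.1, and they were not treated as pairs. This check cannot show that libraries are unpaired. The numbers that end the column names recur across tissues. Of 4 wild type pairs of medulla and pons at 28 weeks with the same such number, 2 correlated above 0.1 (median r 0.22). Of 12 other pairs 3 did (median r -0.10). The main fits did not pair libraries by that number.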

Additional observations from a re-analysis of the deposited data

Results flagged for a closer look

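A library was looked at again where its value in 1 group of 4 to 10 libraries lay far from all the others by Dixon's test. Of 117 tests of 13 measures in 9 groups, 19 met that limit, in 7 libraries. Chance alone marks about 1 in 20 groups, and measures of 1 library are not independent.

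Cerebellum ASO replicate 3 gave 10 of the 19. Its summed level was 5746.7 CPM with 3329 in the nearest library of its group. Psmb10 was at 38.4 CPM, Psme2 at 38.2, Psmb5 at 95.7, Psmb6 at 189.9, Psmb7 at 262, Psmc1 at 223, Psmc5 at 309, Psmd12 at 111 and Psmd8 at 192, each the highest of its group. In pons at 28 weeks, knockin vehicle replicate 4 was the highest of its group for Psmb5 at 65.8 CPM, Psmb6 at 125 and Psmc5 at 224, and ASO replicate 4 was the highest for the summed level at 3537 CPM. Wild type replicate 3 of that tissue was the lowest for the lid subunit Psmd8 at 80.0 CPM.

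In medulla at 28 weeks, knockin vehicle replicate 2, the library with the high choroid plexus sum, was the highest for Psme2 at 24.8 CPM and for Psmd8 at 114. In cerebellum, wild type replicate 1 was the highest for Psmb5 at 54.3 CPM and knockin vehicle replicate 2 for Psmb6 at 110.3.

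Psmd12 lay on opposite sides of wild type in 2 tissues for the same comparison, and was called in neither (edgeR adjusted p = 0.486 in cerebellum and 0.10 in pons). Knockin ASO differed from wild type by 0.26 on the log2 scale in cerebellum, with every ASO library above wild type, and by -0.19 in pons at 28 weeks, with every ASO library below. The difference between the tissues was not tested, ages differed, and the cerebellum value includes ASO replicate 3.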

How the results depend on the processing

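For the 20 comparisons, 423 alternatives were computed. Of these, 378 left the number of called genes within 1.5 times, 45 moved it, and 0 turned the direction of a named value that was called. Most of the 378 belong to comparisons with 0 genes called in the main fit, where the count mostly stayed at 0. The 378 therefore do not measure how stable the calls were. Differences that were not called could change sign, as for Psme1 in knockin vehicle against wild type in pons at 18 weeks (-0.12 to 0.26 with 1 library left out). Leaving out single libraries made 31 of the 45. The count then ran from 0 to 2 for knockin vehicle against wild type in cerebellum (2 without ASO replicate 3, with 14.1% of all genes called). In medulla at 28 weeks it ran from 3 to 6 (6 without knockin vehicle replicate 2, with 26.6%). In pons at 28 weeks it ran from 1 to 13. It was 13 without knockin vehicle replicate 4 (20.5% of all genes) and 1 without replicate 1, 2 or 3 (4.28%, 4% and 4.09%). For ASO against wild type it ran from 1 to 3 in medulla at 28 weeks (3 without wild type replicate 5, with 5.14%). In pons at 28 weeks that count ran from 0 to 11 (11 without knockin vehicle replicate 4, with 5.3%). Cerebellum against medulla gave 21 to 26 and cerebellum against pons 13 to 21. For medulla against pons it ran from 0 (without pons replicate 3, with 1.31%) to 12 (without medulla replicate 5, with 17.2%). It stayed at 0 in the other comparisons.

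Other alternatives moved 14 counts. The share of all genes called in the same fit follows in brackets. With only both groups compared in the fit, cerebellum knockin vehicle against wild type had 2 (16.2%). For knockin vehicle against wild type, medulla at 28 weeks had 1 in batch 1 alone (3.14%) and 5 in batch 2 alone (21.2%). Each of these fits had fewer libraries. For ASO against wild type both batches had 0 (0.2% and 0.943%). DESeq2 called 3 for ASO against wild type in medulla (6.8%) and 4 in pons at 28 weeks (5.06%). For medulla against pons it called 11 (16.7%). That last count was 13 with batch 2 of medulla alone (16%) and 12 without the libraries low in Hox genes (17.2%). The cause was not tested.

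With the replicate number as a block, the count was 0 for ASO against wild type in medulla and 0 in pons at 28 weeks. Of all genes 1.31% and 0.269% were then called, and Psmc5 in medulla had an adjusted p of 0.05003 by edgeR. For knockin vehicle against wild type there it was 3 and 2 (15.1% and 7.45% of all genes). For cerebellum against medulla and pons it was 18 and 14 (52% and 46.9%). For medulla against pons it was 7, with 6 higher and 1 lower (15.7%). The lower gene was Psme1 (-0.26, edgeR adjusted p = 0.00255). Of 12 same-numbered pairs in pons at 28 weeks 4 correlated above 0.1, and 11 of 22 did in medulla, and the numbers were not taken as pairs. In medulla same-numbered replicates also share a labelled batch, which these correlations did not take out. They cannot show that libraries are unpaired. The number that ends the column names was also used as a block, an alternative chosen after seeing the data. Only wild type cerebellum replicate 3 shares it with brainstem libraries at 18 weeks. The regional counts of cerebellum, which moved in that fit, could therefore not be checked by it. The sources used here do not give that number's meaning. At 49.2 M counts or more, every member except Psmc3ip had at least 1 CPM in all 65 libraries.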
